A study of Mus musculus with 6 samples.

Results

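The mitochondrial Slc25 carriers were examined in mouse embryonic stem (ES) cells that carried a Prmt6 expression plasmid or an empty vector. Members were chosen by gene symbol (Slc25a followed by a number, or Ucp1, Ucp2 or Ucp3), and where a gene had several probe sets the one with the highest mean over all 6 arrays was used. Those means were the only measured values in the membership rule, so signal levels are given as a description with no test. The family itself was taken up with earlier results of these data known. On these terms 48 members were measured among 19938 genes. Ucp2 was not analysed here.

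Slc25 carriers are small proteins of the inner mitochondrial membrane that move nucleotides, phosphate, keto acids, amino acids, acylcarnitines, cofactors and metals between cytosol and matrix. Each works by switching between a state open to the cytosol and a state open to the matrix, and most exchange one substrate for another. They are made in the cytosol and inserted through the TOM and TIM22 machinery. A few members lie elsewhere, in the peroxisome or in the outer mitochondrial membrane.

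The tested cells were HM1 mouse ES cells transfected by Lipofectamine 2000 with the pCAGIP.puro plasmid carrying mouse Prmt6 (3 arrays, overexpression), and the controls were HM1 cells given the same plasmid empty (3 arrays). Both groups were cultured in GMEM with 15% serum and LIF at 1000 U/ml, and puromycin at 1 ug/ml was applied for 3 days to select transfected cells, so both had passed transfection and selection. Prmt6 encodes an arginine methyltransferase that modifies histones. Nothing in the labels ties the replicates to separate cultures. The p-values therefore reflect only how far these arrays scatter, which could be technical scatter.

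Prmt6 itself read 7.32, 7.40 and 7.33 in overexpression, against 6.84, 6.58 and 7.12 in control (log2 signal). The difference was 0.50 ± 0.13 (SE), or 1.42-fold, with an adjusted p of 0.0406 (limma). The call ended when any 1 array other than control replicate 3 was left out (0.0788 to 0.119). Whether this probe set reads the sequence cloned into the plasmid was not tested. Array medians were 5.54 to 5.59 in overexpression and 5.60 to 5.62 in control, and the largest shift of the median gene under another scaling was -0.0194. Single bright genes moved further under quantile normalization, for example Slc25a4 from 0.31 to 0.22 and Slc25a5 from 0.073 to -0.018. Over all genes 3.25% fell and 7.05% rose. Of 12 ES cell markers 3 fell and 0 rose (Tdgf1 -0.35, Nanog -0.34 and Sox2 -0.29, each no longer passing without control replicate 1, 2 or 3), and the mean marker level was 10.09 to 10.10 in overexpression and 10.10 to 10.15 in control. Of 14 fibroblast markers 9 rose and 0 fell, with a median of 0.40. The largest rises were those of Acta2 (4.53), Tagln (3.29), Vim (1.62) and Col1a1 (1.34), whereas Lum (0.063), Thy1 (0.043), S100a4 (-0.017), Fap (-0.023) and Postn (0.22) did not pass. The mean level of the list was 6.59 to 6.67 in overexpression and 5.62 to 5.69 in control. The lowest value of any probe set was 0.84, so that no marker read 0 carries no information, and detection calls were not used. Lum, Fap, Postn and also Dcn, which rose, lay under the 30th percentile of gene means (4.85) in both groups. The part of such cells in the carrier differences was not tested. In bulk samples, fewer cells of a type and less RNA per cell cannot be told apart.

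Across the family, 5 members rose (Slc25a24, Slc25a13, Slc25a12, Slc25a1 and Slc25a4), 2 fell (Slc25a31 and Slc25a20) and 41 did not pass an adjusted p of 0.05. The 7 called members were 14.6% of the family, where 10.3% of all genes were called. By direction, 10.4% of members rose against 7.05% of all genes, and 4.17% fell against 3.25% of all genes. The arrays of the groups did not overlap in 17 members (10 above and 7 below control), or 35.4% of the family, where 29.7% of all genes showed no overlap. These shares lie near the background and are read as no more than that. The median difference over the 48 members was 0.045, against 0 over all genes.

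Most carriers differed little. The difference was positive in 27 members, negative in 20 and 0 in 1, and its size was under 0.2 in 32 members. The median size was 0.123 in the family and 0.117 over all genes. Only 1 member, Slc25a24, differed by 0.5 or more (2.08% of the family, against 4.71% of all genes). At an unadjusted p of 0.05, 15 members passed (31.2%, against 24.5% of all genes). Of the 41 members that did not pass, 36 had a 95% interval within 0.5 of 0 in both directions. Overexpression arrays scattered more than control arrays in 39 of 48 members, with a median SD of 0.106 in overexpression and 0.0696 in control. The share over all genes was not counted, so this is not read as a trait of the carriers. Over all probe sets, overexpression arrays correlated with each other at 0.9862 to 0.9899 and control arrays at 0.9914 to 0.992.

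**Figure D1:**
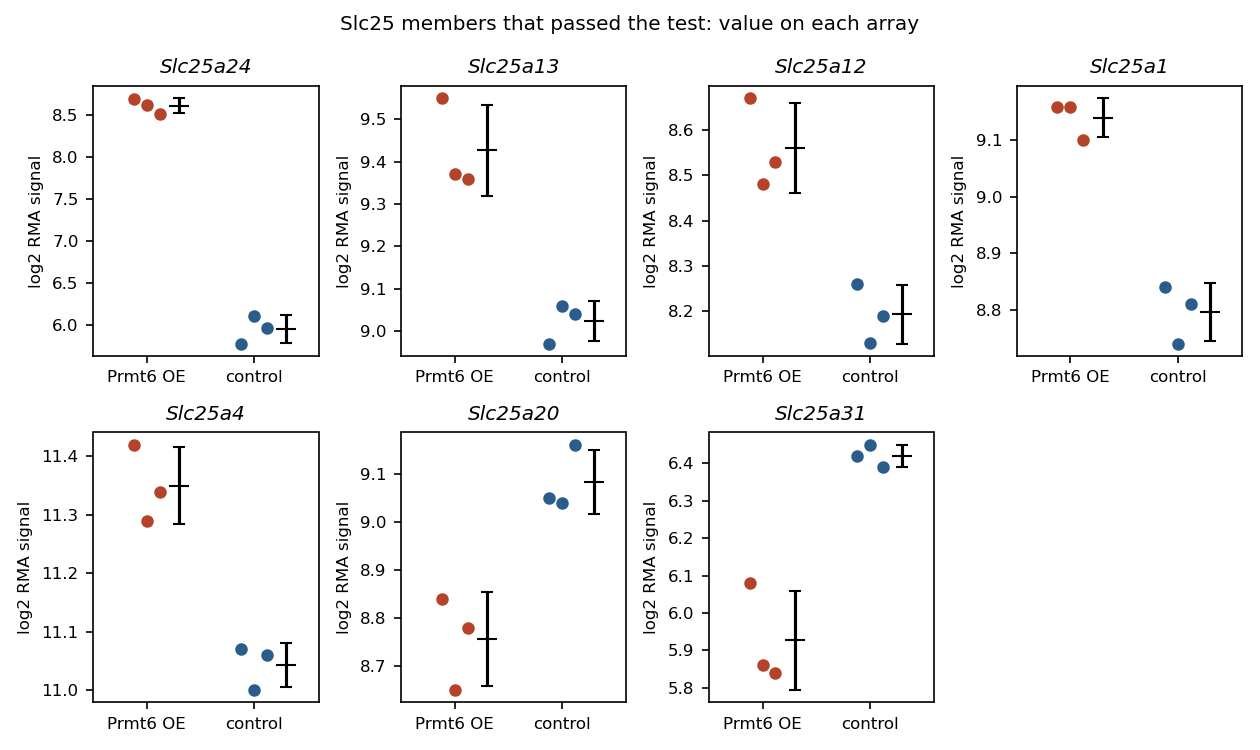
Log2 RMA signal of the 7 Slc25 members that passed the test on each array, Prmt6 overexpression (Prmt6 OE, red) left of control (blue), with the mean and SD (n = 3 each) as a bar beside the points. Each panel has its own vertical scale, which does not start at 0. In all 7 panels the points of the groups are apart, and the gap is widest for Slc25a24.

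The promoters of 3 members are shown because these genes carry the largest rise, the largest fall and, in Slc25a4, a rise in a close relative of the gene that fell. They are 300-base RefSeq windows (GRCm38.p6), from 250 bases before to 50 after the gene start, and are printed along the strand of the gene. They lie at chr3:109122899-109123198 (+ strand) for Slc25a24, chr3:40708621-40708920 (+ strand) for Slc25a31 and chr8:46211013-46211312 (- strand) for Slc25a4. Capitals mark matches, on either strand, to a list of short motifs described further on.
Slc25a24: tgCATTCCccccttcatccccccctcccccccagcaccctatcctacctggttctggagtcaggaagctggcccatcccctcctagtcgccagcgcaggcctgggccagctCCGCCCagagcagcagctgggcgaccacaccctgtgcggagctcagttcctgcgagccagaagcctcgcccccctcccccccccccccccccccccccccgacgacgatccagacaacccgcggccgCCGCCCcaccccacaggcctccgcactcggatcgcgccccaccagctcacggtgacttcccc
Slc25a31: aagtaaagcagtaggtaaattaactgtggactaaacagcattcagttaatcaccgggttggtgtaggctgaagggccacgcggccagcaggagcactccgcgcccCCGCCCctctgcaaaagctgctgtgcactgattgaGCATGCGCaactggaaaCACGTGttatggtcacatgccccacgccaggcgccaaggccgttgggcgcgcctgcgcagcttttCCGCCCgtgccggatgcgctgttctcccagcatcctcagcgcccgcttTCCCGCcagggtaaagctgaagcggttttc
Slc25a4: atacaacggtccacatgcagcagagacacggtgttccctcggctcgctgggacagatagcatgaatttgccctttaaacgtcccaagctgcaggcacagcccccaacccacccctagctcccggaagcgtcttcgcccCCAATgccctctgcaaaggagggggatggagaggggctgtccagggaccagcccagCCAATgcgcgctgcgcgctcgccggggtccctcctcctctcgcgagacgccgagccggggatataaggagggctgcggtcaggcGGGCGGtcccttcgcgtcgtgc

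Adenine nucleotide carriers held the largest changes of the family. Over all genes 7.05% rose and 3.25% fell, and in substrate groups this small 1 or 2 calls are not read as a trait of the group. Of 11 measured members 2 rose, 1 fell and 8 did not pass, and the median difference was 0. Slc25a24, the calcium-regulated ATP-Mg/phosphate carrier SCaMC-1, read 8.69, 8.61 and 8.51 in overexpression, against 5.78, 6.11 and 5.97 in control. All overexpression arrays lay far above all control arrays. The difference was 2.65 ± 0.099 (95% interval 2.42 to 2.88), or 6.28-fold, with an adjusted p of 2.05e-06. This rise was already known when the family was taken up, so it is given as a description.

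The relatives of Slc25a24 did not pass. Slc25a25 (SCaMC-2) read 7.05, 6.88 and 6.91 in overexpression and 6.83, 6.93 and 6.89 in control. Slc25a23 (SCaMC-3) read 6.06, 6.12 and 6.21 in overexpression and 6.00, 6.10 and 6.13 in control. In both genes the groups overlapped, with differences of 0.063 and 0.053. Slc25a41, a relative that lacks the calcium-binding domain, differed by -0.037. Slc25a54, a SCaMC-1-like gene, had a difference of 0.00 and read 2.98, 2.94 and 2.93 in overexpression against 3.31, 2.59 and 2.95 in control, under the 30th percentile of gene means (4.85). The difference of Slc25a24 exceeded that of Slc25a23 by 2.60, that of Slc25a25 by 2.59 and that of Slc25a41 by 2.69. On chromosome 3 Slc25a24 lies between Slc25a54 and Vav3, and neither neighbour was called (Vav3 0.03).

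The ADP/ATP carriers, which exchange matrix ATP for cytosolic ADP, moved in different directions. Slc25a31, the form of male germ cells, read 6.08, 5.86 and 5.84 in overexpression, against 6.42, 6.45 and 6.39 in control. Every overexpression array was below every control array, and the difference was -0.49 ± 0.084, so that the signal was 1.41-fold higher in control (adjusted p = 0.00748). The fall of this gene too was known beforehand. Of 12 germ cell markers 2 fell (Hormad1 -0.79 and Dazl -0.49), 0 rose and 10 did not pass, where 3.25% of all genes fell. The median of the list was -0.135, and 3 of 12 differences were positive. Its mean level was 5.34 to 5.43 in overexpression and 5.55 to 5.59 in control, and its part in the fall of Slc25a31 was not tested.

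Slc25a4, the main ADP/ATP carrier of heart and skeletal muscle, rose. It read 11.42, 11.29 and 11.34 in overexpression, against 11.07, 11.00 and 11.06 in control, with no overlap. The difference was 0.31 ± 0.071, or 1.24-fold (adjusted p = 0.0299), and it no longer passed when any 1 of the 6 arrays was left out (0.0543 to 0.115). The call also ended under quantile normalization (0.0606) and with a replicate block (0.0785). Of the 9 brown fat and striated muscle markers 0 passed in limma, with 1 at an unadjusted p under 0.05 and 0 under a trended and robust prior.

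Slc25a5, the ADP/ATP carrier of proliferating cells, did not pass, with a difference of 0.073 (95% interval -0.11 to 0.25). It read 10.95, 10.97 and 11.14 in overexpression and 10.98, 10.90 and 10.96 in control, so the groups overlapped. Its other probe sets differed by 0.06 and 0.11. Because the ADP/ATP carrier genes are close in sequence, probes may read more than 1 of them, and this was not tested. The difference of Slc25a4 exceeded that of Slc25a5 by 0.23. The difference of Slc25a31 minus that of Slc25a4 was -0.80, and minus that of Slc25a5 it was -0.57. Each of these 3 contrasts had an exact two-sided permutation p of 0.1, the smallest that 3 against 3 arrays allow, and 0.133 after Benjamini-Hochberg adjustment over 12 paralogue pairs.

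**Figure D2:**
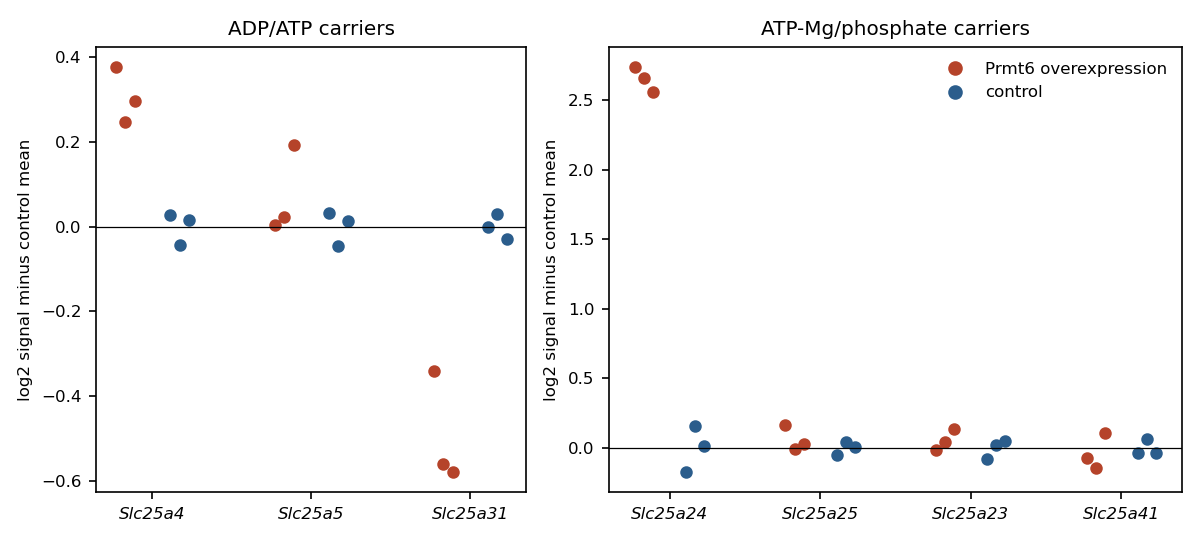
Log2 RMA signal minus the control mean of the same gene, for the ADP/ATP carriers (left panel) and the ATP-Mg/phosphate carriers (right panel, wider scale), 1 point per array, Prmt6 overexpression (red) left of control (blue). Slc25a24 stands 2.65 higher in overexpression, Slc25a4 is higher and Slc25a31 lower, and the arrays of the other genes overlap.

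The remaining adenine nucleotide carriers stayed close to control. Slc25a17, the peroxisomal carrier of CoA, FAD and adenine nucleotides, differed by -0.090. Slc25a42, a CoA carrier, differed by -0.083 and Slc25a16, which is linked to CoA transport, by -0.063, and none of the 3 passed. Slc25a3, the phosphate carrier that supplies ATP synthase, read 10.49, 10.41 and 10.30 in overexpression, against 10.42, 10.38 and 10.48 in control. Its groups overlapped and its difference was -0.027 (95% interval -0.20 to 0.15).

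Among 6 carriers of dicarboxylates, tricarboxylates and keto acids, 1 rose (7.05% of all genes did) and 5 did not pass, with a median of 0.023. Slc25a1, the citrate carrier, exports mitochondrial citrate for fatty acid and sterol synthesis. It read 9.16, 9.16 and 9.10 in overexpression, against 8.84, 8.74 and 8.81 in control, with no overlap. The difference was 0.34 ± 0.069, or 1.27-fold (adjusted p = 0.0158). The call ended without overexpression replicate 2 (0.0582), without control replicate 1 (0.0521), 2 (0.0751) or 3 (0.0604), and with a replicate block (0.0592). Slc25a10, the dicarboxylate carrier, differed by -0.017 and Slc25a11, the oxoglutarate/malate carrier, by -0.020. Slc25a21, the oxoadipate carrier, read 3.94, 3.52 and 4.25 in overexpression and 3.33, 3.64 and 3.50 in control. Its groups overlapped, and its difference of 0.41 did not pass (adjusted p = 0.181), although it did without overexpression replicate 2 (0.60, adjusted p = 0.0378). The orphan members Slc25a34 and Slc25a35 differed by 0.063 and -0.077.

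Over all genes 7.05% rose and 3.25% fell. Of 9 amino acid carriers 2 rose, 0 fell and 7 did not pass, with a median of 0.13. Both that rose are aspartate/glutamate carriers, which export aspartate in the malate-aspartate shuttle. Slc25a13 (citrin) read 9.55, 9.37 and 9.36 in overexpression, against 8.97, 9.06 and 9.04 in control. Its arrays did not overlap, and the difference was 0.40 ± 0.080, or 1.32-fold (adjusted p = 0.0144). Without control replicate 1 or 3 it no longer passed (0.0702 and 0.0521).

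Slc25a12 (aralar) read 8.67, 8.48 and 8.53 in overexpression, against 8.26, 8.13 and 8.19 in control. Again all overexpression arrays were higher. The difference was 0.37 ± 0.080, or 1.29-fold (adjusted p = 0.0226), and it did not pass without control replicate 1 (0.055), 2 (0.0926) or 3 (0.0815). The difference of Slc25a12 minus that of Slc25a13 was -0.037 (exact two-sided permutation p = 0.8, adjusted 0.8). Beside Slc25a12 on the chromosome, Dync1i2, a dynein intermediate chain gene, also rose (0.39, adjusted p = 0.0414), whereas Hat1 did not pass (-0.25, adjusted p = 0.122).

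The other amino acid carriers did not pass. Slc25a38, the glycine carrier needed for heme synthesis, read 9.04, 8.99 and 9.22 in overexpression and 8.82, 8.89 and 8.74 in control. Its groups did not overlap, but its difference of 0.27 missed the threshold (adjusted p = 0.0931). Slc25a18, a glutamate carrier, differed by -0.26 (adjusted p = 0.132) without overlap, and its paralogue Slc25a22 by -0.020 with overlap. Slc25a22 exceeded Slc25a18 by 0.24 (exact two-sided permutation p = 0.1, adjusted 0.133). The ornithine carriers Slc25a15 and Slc25a2 differed by 0.12 and 0.13. Slc25a29, a basic amino acid carrier, differed by 0.15 and Slc25a44, a branched-chain amino acid carrier, by 0.10.

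Of 4 carriers in the acylcarnitine group 1 fell (3.25% of all genes did) and 3 did not pass, with a median of 0.047. Slc25a20, the carnitine/acylcarnitine carrier that brings long-chain fatty acids into the matrix for oxidation, read 8.84, 8.65 and 8.78 in overexpression, against 9.05, 9.04 and 9.16 in control. All overexpression arrays were lower, with a difference of -0.33 ± 0.080, and the signal was 1.25-fold higher in control (adjusted p = 0.0362). The call ended without overexpression replicate 2 (0.113) or 3 (0.0644), without control replicate 1 (0.0982), 2 (0.0865) or 3 (0.140), and with a replicate block (0.0776). Slc25a45, Slc25a47 and Slc25a48, relatives of this carrier, differed by 0.18, 0.083 and 0.010 with overlapping groups.

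Of 5 carriers of cofactors and nucleotides 0 passed in limma. At an unadjusted p under 0.05 there was 1 (24.5% of all genes), and 1 passed under a trended and robust prior. Both counts are Slc25a51, the NAD carrier, which read 7.83, 7.49 and 7.52 in overexpression and 7.25, 7.31 and 7.40 in control. Its groups did not overlap, and its difference was 0.29 (adjusted p = 0.120). Slc25a33 and Slc25a36, which carry pyrimidine nucleotides, differed by 0.17 and -0.083, both with overlap. The second probe set of Slc25a36 differed by -0.15 without overlap (8.87, 8.93 and 8.93 in overexpression, 9.03, 9.05 and 9.09 in control). Slc25a26, which imports S-adenosylmethionine, the methyl donor that Prmt6 and other methyltransferases use, differed by 0.037. Slc25a32, a folate and FAD carrier, differed by -0.030.

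Of 4 carriers of iron and glutathione 0 passed, and the median was -0.19. At an unadjusted p under 0.05 there were 2 (24.5% of all genes), and 0 passed under a trended and robust prior. Slc25a37 (mitoferrin 1), the iron carrier of erythroid cells, read 5.94, 5.99 and 6.13 in overexpression and 6.27, 6.35 and 6.21 in control. Its groups did not overlap and its difference was -0.26 (adjusted p = 0.0862). Its paralogue Slc25a28 (mitoferrin 2) differed by -0.13 with overlap. Of 5 erythroid markers 0 passed, with 0 at an unadjusted p under 0.05 and 0 under a trended and robust prior. Slc25a39, a glutathione carrier, differed by 0.13 and its paralogue Slc25a40 by -0.24, so that Slc25a39 exceeded Slc25a40 by 0.37 (exact two-sided permutation p = 0.1, adjusted 0.133). The second probe set of Slc25a40 differed by -0.25.

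Of 5 uncoupling proteins and their relatives 0 passed. At an unadjusted p under 0.05 there was 1 (24.5% of all genes), and 1 passed under a trended and robust prior. That member was Slc25a27 (UCP4), a brain carrier, which read 6.08, 5.93 and 6.02 in overexpression and 6.17, 6.32 and 6.50 in control. Its groups did not overlap, and its difference of -0.32 was the closest to the threshold among the members that did not pass (adjusted p = 0.0778). Ucp1, the proton leak of brown fat, differed by 0.21 and Ucp3, the form of skeletal muscle, by 0.13, both with overlap and both under the 30th percentile of gene means. Slc25a14 (UCP5) and Slc25a30 differed by 0.17 and 0.033. Of the last 3 members 0 passed, also under a trended and robust prior. An unadjusted p under 0.05 was found in 1 (24.5% of all genes). The orphans Slc25a53 and Slc25a43 differed by -0.21 and 0.080, and Slc25a46, an outer-membrane protein of mitochondrial dynamics, by -0.027.

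**Figure D3:**
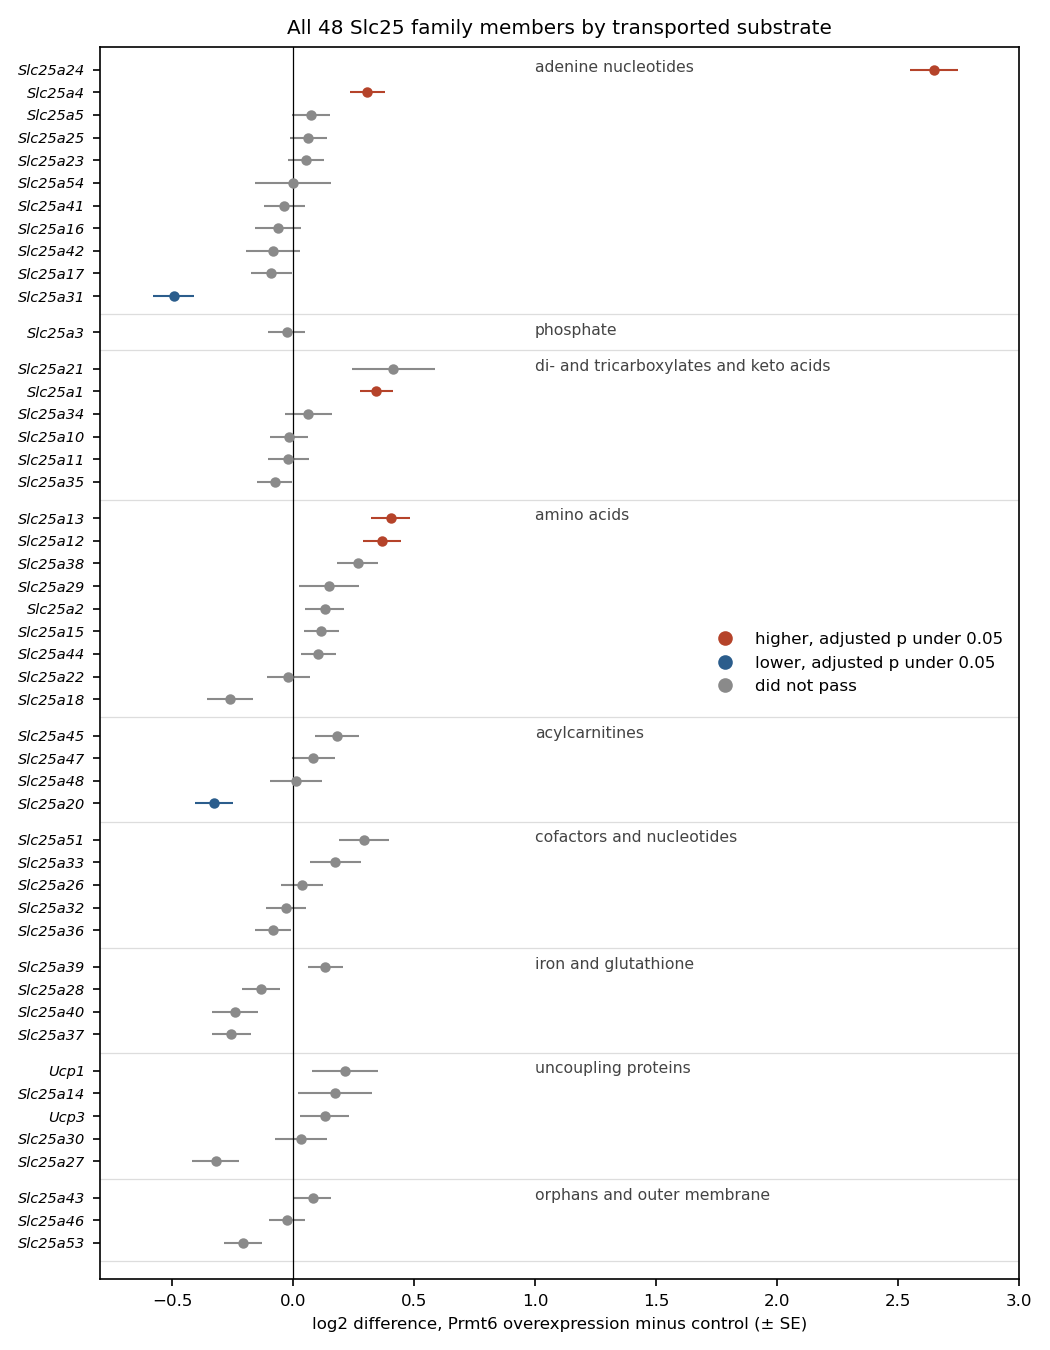
Log2 difference (Prmt6 overexpression minus control) with its SE for all 48 members, grouped by what they carry. Slc25a24 stands alone at 2.65, and the other 47 members lie between -0.49 and 0.41.

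Genes that work with the carriers were taken from lists of pathway members. ATP synthase subunits use the ADP, ATP and phosphate that Slc25a4, Slc25a5 and Slc25a3 carry. Of 15 subunit genes 5 rose and 0 fell (33.3% called, against 10.3% of all genes called in either direction and 7.05% that rose). Among the 5 were Atp5d (0.51), Atp5k (0.47), Atp5j2 (0.45) and Atp5e (0.37). The difference was positive in 15 of 15. Of 19 subunits of respiratory chain complexes III and IV 4 rose and 0 fell (21.1%), namely Uqcrq (0.50), Cox6b1 (0.45), Cox6c (0.28) and Uqcrc2 (0.27), and 19 of 19 were positive. Of 15 genes of the import machinery 4 rose and 0 fell (26.7%), namely Tomm5 (0.56), Timm8b (0.50), Tomm22 (0.34) and Tomm7 (0.30), and 13 of 15 were positive. Of the rising genes named in this paragraph, Atp5d, Cox6b1, Tomm5 and Timm8b passed under all 15 alternatives. The other rising genes named lost the call without at least 1 array. Cox6c, Uqcrc2, Atp5j2 and Tomm7 also lost it under quantile normalization. Leaving out arrays or changing settings moved the counts of rises. They ranged from 1 to 7 for ATP synthase, 1 to 11 for complexes III and IV and 2 to 8 for import. The sign counts hold for the deposited scaling and were not repeated under quantile normalization, which lowered the differences of bright genes such as Slc25a4. Some differences were small, for example Atp5b (0.017), Atp5g3 (0.06) and Uqcrb (0.023). The share of positive differences over all genes was not counted. ATP synthase genes were bright (mean level 10.18 to 10.27 in control, against a median gene of 5.87), and the background includes dim genes.

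Downstream of the citrate carrier, 3 of 11 genes of cytosolic citrate use and fatty acid synthesis rose and 1 fell (36.4% called). The fatty acid desaturases Scd2 (1.50) and Scd1 (0.97) and the NADPH-making malic enzyme Me1 (0.48) rose, and the acetyl-CoA synthetase Acss2 fell (-0.31). Acly, which cleaves exported citrate, differed by 0.20 (adjusted p = 0.123) and fatty acid synthase, Fasn, by -0.0067, and neither passed. Of 22 genes of the tricarboxylic acid cycle and pyruvate entry 3 rose and 1 fell (18.2%): Sdhd (0.40), Idh2 (0.40) and Dlst (0.26) rose and Pcx, pyruvate carboxylase, fell (-0.35). Scd2, Scd1, Me1 and Idh2 passed under all 15 alternatives, whereas Acss2, Sdhd, Dlst and Pcx each lost the call without at least 1 array. Sdhd and Dlst also lost it under quantile normalization.

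Of 16 genes of fatty acid oxidation, the pathway that Slc25a20 feeds, 0 passed in limma and 7 under a trended and robust prior. An unadjusted p under 0.05 was found in 9 of the 16, against 24.5% of all genes. The difference was positive in 11 of 16, with a median of 0.12, whereas Slc25a20 fell. The smallest p was that of the dehydrogenase Acadm (0.28, adjusted p = 0.0553). Cpt1a, which makes the acylcarnitines and was added after its value was seen, differed by -0.24 (adjusted p = 0.0827). Cpt1c (-0.24, adjusted p = 0.106) and Etfb (-0.24, adjusted p = 0.109) of the same list also read lower without overlap and did not pass. Of 7 genes of the malate-aspartate and glycerol phosphate shuttles 0 passed, with 3 at an unadjusted p under 0.05 and 3 under a trended and robust prior, the nearest being Gpd2 (0.26, adjusted p = 0.0608).

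Arg2, the mitochondrial arginase that makes ornithine, fell by the most in these lists (-1.32), and Oat, which uses ornithine, rose (0.30), the 2 calls among 11 genes of arginine, ornithine and proline metabolism (18.2%). Of 12 one-carbon and glycine genes 1 rose (Gldc 0.29, 8.33% called), and of 16 genes of heme and iron-sulfur cluster synthesis 1 rose (Glrx5 0.38, 6.25% called), both shares below the 10.3% of all genes. Of 9 genes of calcium uptake and outer-membrane channels 1 fell (11.1% called), Micu3 (-0.50), a regulator of the calcium uniporter. Of 8 other mitochondrial transporters 1 rose (12.5% called), Sfxn3, a serine transporter of the sideroflexin family. It read 7.47, 7.30 and 7.60 in overexpression, against 6.34, 6.19 and 6.23 in control, a difference of 1.20. Arg2, Micu3 and Sfxn3 passed under all 15 alternatives, whereas Oat, Gldc and Glrx5 lost the call without at least 1 array. Oat also lost it under quantile normalization. Of 9 biogenesis factors 0 passed, with 1 at an unadjusted p under 0.05 and 0 under a trended and robust prior (smallest p, Ppargc1b, 0.21, adjusted p = 0.109).

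**Figure D4:**
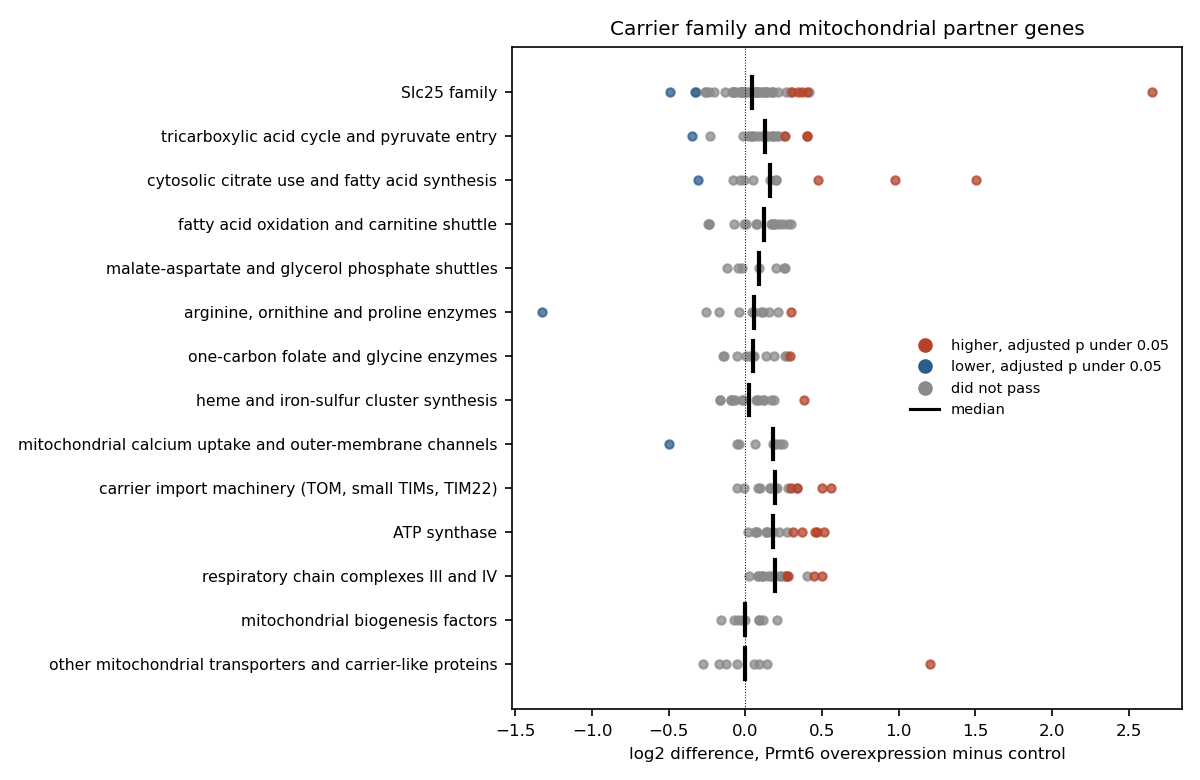
Log2 difference (Prmt6 overexpression minus control) of each gene in the Slc25 family and in the lists of partner genes, 1 point per gene, with the median of each list as a black bar. The medians lie between -0.0033 and 0.20, and Slc25a24, Scd2 and Sfxn3 are far to the right and Arg2 far to the left.

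RefSeq promoters were matched for 38 of the 48 members, including 7 of 7 that passed. Searches covered both strands for a GC box (CCGCCC), the letters CCAAT, an E2F6-type site (TCCCGC), a TEAD site (GGAATG), an E-box (CACGTG), an AP-1 site (TGANTCA), the letters TATAAA and an NRF1 core (GCATGCGC). The Slc25a24 window has 72.3% GC, against a median of 52.7% over 32851 promoters, with GC boxes at -139 and -12 and a TEAD match at -248. The Slc25a31 window has GC boxes at -145 and -28, an NRF1 core at -110, an E-box at -93 and an E2F6-type match at +21. The Slc25a4 window has CCAAT at -112 and -56 and a GC box at +29.

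Counted by gene, a GC box was found in 30 of 38 members and in 38.2% of all genes with a promoter. CCAAT was found in 19 of 38 and 41.1%, the E2F6-type site in 10 of 38 and 22.05%, and the TEAD site in 7 of 38 and 16.6%. The E-box was found in 7 of 38 members and in 8.09% of all genes with a promoter. AP-1 was found in 2 of 38 and 8.97%, TATAAA in 2 of 38 and 15.7%, and the NRF1 core in 2 of 38 and 3.05%. A match describes letters in a window and is no evidence of binding.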

How the data were processed

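RNA from 6 samples (3 Prmt6 overexpression, 3 control) was measured on 1 Affymetrix array each. The deposited values are log2 signals made by the authors with RMA (robust multi-array average), a method named without a version in the submitters' processing notes. RMA gives all arrays like distributions, which would hide a shift common to most genes. There were 35556 probe sets, 0 missing values and a range of 0.84 to 14.38. The platform annotation gave 1 symbol for 21789 probe sets, several for 1621 and none for 12146, and the last 2 kinds were left out. Each of 19938 genes was represented by its probe set with the highest mean. Detection calls were not used, so dim values are not told from background. Precision is limited by the number of arrays.

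Overexpression was compared with control in limma 3.58.1 (R 4.3.3; lmFit and eBayes, two-sided, no covariates, no filter on dim genes), with Benjamini-Hochberg adjustment over all genes and a threshold of 0.05. Differences are overexpression minus control on the log2 scale, ± SE. Paralogue pairs were compared by exact permutation over arrays (scipy 1.17.1). All members are named, and of each partner list up to 4 passing genes with the largest difference, or the gene with the smallest p. Acly, Fasn, Cpt1a, Cpt1c, Etfb, Atp5b, Atp5g3, Uqcrb, the fibroblast markers that did not pass and the chromosomal neighbours were added after their values were seen. The members and lists were chosen with earlier results of these data known. The alternatives comprised array weights, a replicate block, omission of each array, filters at the 30th percentile and the median, centring, quantile normalization, the mean of probe sets, a trended and robust prior and a threshold of 0.01. The motif list was chosen after the data were seen. The fit was tested on simulated data (5 runs of this comparison, each of 19938 genes). Of genes given a log2 change of 0.3 it found 7.2%, of 0.5 73.2%, and of 1 and 2 100%. Each run changed far fewer genes than the 2052 called here, which makes the adjustment stricter. These shares therefore do not carry over to the real comparison. Plots used Python 3.11.15 and matplotlib 3.10.9.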

Additional observations from a re-analysis of the deposited data

How the results depend on the processing

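Slc25a24 and Slc25a31 passed under all 15 alternatives, with highest adjusted p of 0.000111 and 0.0353. The main count of 5 higher members was 3 with a replicate block, 1 at a threshold of 0.01 and 1 to 4 when 1 array was left out. The main count of 2 lower members was 5 with array weights, 4 with each of the 30th percentile filter, the median filter and quantile normalization, 1 with a replicate block, 1 at a threshold of 0.01 and 1 to 3 when 1 array was left out. Cause was not tested, except that the filters test fewer genes and leaving out arrays uses fewer samples. Same-numbered arrays of the groups correlated at -0.019, -0.0158 and -0.117 after group means were removed, and arrays with unlike numbers at -0.1 to 0.114. No pairing by number was seen, but with so few arrays these values cannot show how the samples were prepared. Members that did not pass in the main comparison but did elsewhere were Slc25a27, Slc25a37, Slc25a38, Slc25a51, Slc25a18, Slc25a40 and Slc25a21. Of 700 member comparisons, 629 kept direction and side of the threshold, 29 lost the call, 17 gained it and 25 changed sign. All sign changes were in 14 members that did not pass. With array weights these were Slc25a22 (0.040), Slc25a26 (-0.0041), Slc25a30 (-0.032) and Slc25a48 (-0.0067), and with quantile normalization Slc25a26 (-0.029), Slc25a30 (-0.022) and Slc25a5 (-0.018). When 1 array was left out the sign changed in 13 members, with ranges of -0.053 to 0.037 for Slc25a10, -0.080 to 0.040 for Slc25a11, -0.115 to 0.035 for Slc25a16, -0.090 to 0.060 for Slc25a22, -0.033 to 0.082 for Slc25a26, -0.072 to 0.023 for Slc25a3, -0.083 to 0.102 for Slc25a30, -0.075 to 0.025 for Slc25a32, -0.018 to 0.137 for Slc25a34, -0.108 to 0.017 for Slc25a41, -0.185 to 0.040 for Slc25a42, -0.070 to 0.020 for Slc25a46 and -0.088 to 0.087 for Slc25a48. Prmt6 no longer passed in 8 of 15 alternatives, among them quantile normalization (0.0633), a replicate block (0.0615) and a threshold of 0.01. Leaving out any array but control replicate 3 also ended it (0.0788 to 0.119). Outside the family, 613 comparisons covered Prmt6 and only the partner and marker genes picked by the naming rule, mostly passing genes with large differences. Of these comparisons 474 kept their side, 130 lost the call, 9 gained it and 0 changed sign. Such a choice leaves little room for a sign change, and the signs of the other list genes were not examined. With 3 arrays a group, some differences near 0.3 were called (Slc25a4 0.31, Slc25a1 0.34 and Slc25a20 -0.33). Others of like size were not (Slc25a27 -0.32 and Slc25a51 0.29).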
